A study of Homo sapiens with 8 samples.

Results

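The genes described are 37 DNA repair and Fanconi anaemia pathway genes, listed by symbol, in T47D cells given estradiol or a knockdown of 17β-HSD1. A gene was measured through the probe set that carries its symbol and no other, and 33 of the 37 had 1, out of 18417 genes measured this way. BRCA2, FANCA, FANCD2 and RBBP8 were not analysed here. The members were 10 homologous recombination genes, 8 genes of the Fanconi core complex and its conjugating enzyme, FANCI, 7 genes for resection, helicases and nucleases, 4 checkpoint kinases, and POLQ, NEIL3 and MSH6.

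Homologous recombination copies a broken DNA duplex from its sister chromatid: the ends are resected, the single strand invades the sister with the help of the BRCA proteins, and the joined molecules are then taken apart by helicases and nucleases. The Fanconi anaemia pathway works upstream of it at crosslinked DNA, where the core complex, with the ligase FANCL and the conjugating enzyme UBE2T, attaches ubiquitin to FANCD2 and FANCI. ATM and ATR sense breaks and stalled forks and signal through CHEK2 and CHEK1. Many of these genes are transcribed mainly in S phase and G2, and estradiol drives luminal breast cancer cells into the cycle.

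T47D, a long-used cell line from a luminal breast tumour, expresses the estrogen receptor, and its RNA was read on 8 Affymetrix Human Gene 1.0 ST arrays. Every culture, controls included, spent 2 days without steroids and then received 200 nM siRNA by lipofection. Controls received a scrambled sequence, and the knockdown used a mix of 3 siRNAs against 17β-HSD1, the product of HSD17B1, which makes estradiol from estrone. After 48 h the medium was replaced by steroid-deprived medium with 1 nM estradiol (E2) or with ethanol as vehicle, and RNA was taken 2 days later. Each siRNA was thus combined with each medium, which makes 4 groups of 2 arrays. The knockdown is transient, in 1 cell line, with 1 siRNA mix, and with 2 arrays per group the number of arrays limits the precision.

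HSD17B1 itself was lower on each of the 4 knockdown arrays (8.32 to 8.41) than on each of the 4 control arrays (8.56 to 9.35), with a change of -0.56 ± 0.16 (SE) that did not pass (limma adjusted p = 0.221). Directions under the siRNA below are those of the arrays labelled 17β-HSD1 siRNA. The array least like the others was 17β-HSD1 siRNA, vehicle replicate 1, whose mean correlation with the others was 0.976 against 0.984 to 0.988. All 10 luminal markers, ESR1 and GATA3 among them, were above each array's median, and all 4 endothelial markers were below it. Of the measured basal, fibroblast and immune markers, 1 of 4, 2 of 5 and 0 of 4 were above it on all arrays.

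E2 raised 10 of the 33 repair genes and lowered none, on the average over the siRNAs (4 arrays against 4, limma, Benjamini-Hochberg adjusted p below 0.05). The 10 were EXO1, CHEK1, FANCI, UBE2T, BRCA1, BLM, NEIL3, XRCC2, POLQ and BRIP1, with rises of 1.52- to 1.88-fold. Of the 21214 probe sets tested, 1.32% rose and 0.226% fell in this comparison. Over the 33 members 31 changes were positive and the median log2 change was 0.35, against -0.02 over all 18417 genes. On all 4 E2 arrays 17 of the 33 members lay above all 4 vehicle arrays, an arrangement that 2.94% of all tested probe sets had. With the replicate number as a block the count was 14 (1.85% of probe sets rose), adding RAD51AP1 (adjusted p = 0.0187), BARD1 (adjusted p = 0.0289), RAD54B (adjusted p = 0.0463) and EME1 (adjusted p = 0.0494). It was 6 without 17β-HSD1 siRNA, E2 replicate 1 and 4 without replicate 2, when BRCA1, BRIP1, EXO1, FANCI, POLQ and XRCC2 lost the call, and 4 when the fit also held the probe sets that lack a symbol.

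**Figure D1:**
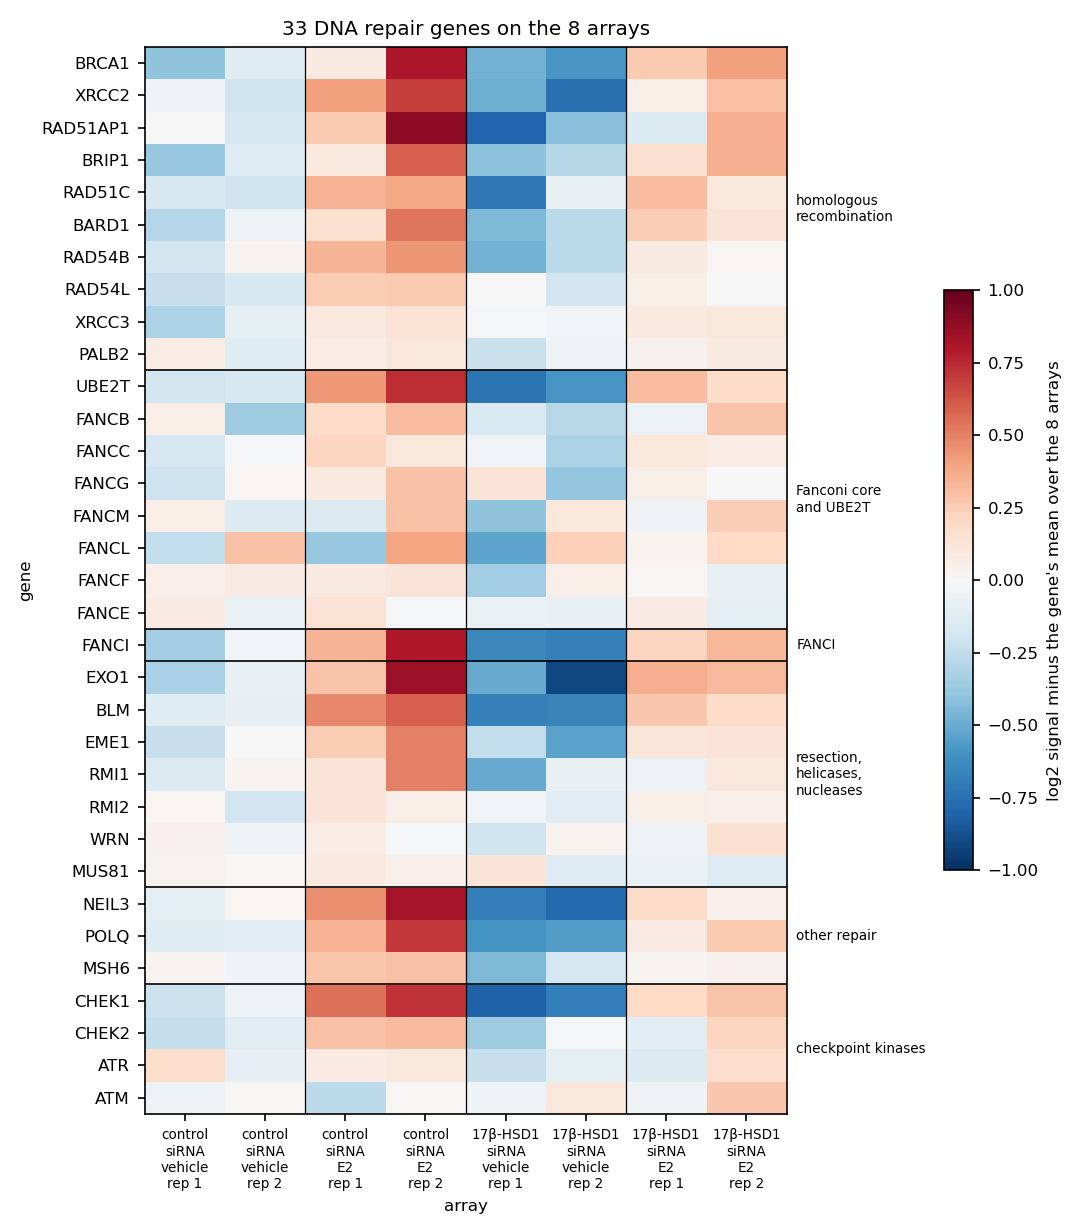
Log2 signal of the 33 measured repair genes (rows, by role) on the 8 arrays (columns), each shown as the difference from the gene's mean over the arrays, blue below and red above. On average the E2 columns are redder than the vehicle columns for 31 of 33 genes, and control siRNA with E2 replicate 2 is the highest array for 26 of them.

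Cell cycle genes moved with these members. Of 17 cell cycle genes 13 rose with E2, MKI67, CDK1, CCNB1 and the MCM helicase genes other than MCM4 among them. The median over the 17 was 0.67. MCM4 (0.36), E2F1 (0.21), E2F2 (0.25) and E2F8 (0.40) did not pass (limma adjusted p between 0.305 and 0.725). The mean log2 signal of the 17 was 8.84 and 8.92 in control siRNA with vehicle and 9.42 and 9.63 with E2. It was 8.40 and 8.31 in 17β-HSD1 siRNA with vehicle and 9.12 and 9.10 with E2. In RNA from whole cultures, a change in the share of cells of a kind cannot be told from a change in RNA per cell. The part that the cell cycle genes' shift has in the members' changes was not tested.

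Among the homologous recombination genes, 3 of 10 rose with E2 and all 10 changes were positive, with a median of 0.55. BRCA1, which with BARD1 forms a ubiquitin ligase that promotes recombination, had log2 signals of 7.27 and 7.55 in control siRNA with vehicle, 7.76 and 8.48 with E2, 7.20 and 7.09 in 17β-HSD1 siRNA with vehicle and 7.93 and 8.08 with E2. The 4 E2 arrays were all above the 4 vehicle arrays, by 0.78 ± 0.15 on average (1.72-fold, adjusted p = 0.0267). Control siRNA with E2 replicate 2 was the highest of them and lay well above its replicate. The call was lost without 6 of the 8 arrays, each left out in turn, and with all probe sets in the fit. XRCC2, a recombination protein, measured 7.56 and 7.40 in control siRNA with vehicle, 8.01 and 8.29 with E2, 7.11 and 6.85 in 17β-HSD1 siRNA with vehicle and 7.66 and 7.90 with E2. Its rise was 0.73 ± 0.12, or 1.66-fold (adjusted p = 0.0113), and E2 and vehicle arrays did not overlap. For BRIP1, the helicase that binds BRCA1, the signals were 7.07 and 7.32 in control siRNA with vehicle, 7.55 and 8.05 with E2, 7.04 and 7.17 in 17β-HSD1 siRNA with vehicle and 7.61 and 7.81 with E2. BRIP1 was at the edge of the threshold, at 0.61 ± 0.13 with an adjusted p of 0.0499, and it lost the call without any of 7 of the 8 arrays and after quantile normalization (adjusted p = 0.0571).

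The other 7 recombination genes did not pass. BARD1, the partner of BRCA1, had signals of 7.92 and 8.16 in control siRNA with vehicle, 8.37 and 8.75 with E2, 7.76 and 7.94 in 17β-HSD1 siRNA with vehicle and 8.46 and 8.34 with E2. RAD51AP1, which takes part in strand pairing, measured 6.79 and 6.63 in control siRNA with vehicle, 7.06 and 7.69 with E2, 6.00 and 6.38 in 17β-HSD1 siRNA with vehicle and 6.66 and 7.16 with E2. RAD51C, another recombination protein, measured 8.20 and 8.16 in control siRNA with vehicle, 8.71 and 8.75 with E2, 7.65 and 8.29 in 17β-HSD1 siRNA with vehicle and 8.67 and 8.47 with E2. The E2 arrays of BARD1 and RAD51C lay above all their vehicle arrays, while RAD51AP1 overlapped, with 17β-HSD1 siRNA, E2 replicate 1 below control siRNA, vehicle replicate 1. The E2 changes were 0.69 ± 0.17 for RAD51AP1, 0.58 ± 0.14 for RAD51C, 0.53 ± 0.12 for BARD1 and 0.45 ± 0.11 for RAD54B, with adjusted p between 0.0612 and 0.0774. RAD54B and RAD54L encode motor proteins of strand exchange, and the E2 change of RAD54L was 0.29 ± 0.10 (adjusted p = 0.311). XRCC3 stood at 0.23 ± 0.10 and PALB2, which bridges BRCA1 and BRCA2, at 0.15 ± 0.10 (adjusted p = 0.545 and 0.86). PALB2 lay within 7.96 to 8.29 on all 8 arrays.

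In the Fanconi pathway the conjugating enzyme and its substrate FANCI rose while no measured core subunit passed. The core subunit FANCA and the other substrate, FANCD2, were not analysed here. UBE2T had signals of 9.17 and 9.19 in control siRNA with vehicle, 9.78 and 10.09 with E2, 8.62 and 8.76 in 17β-HSD1 siRNA with vehicle and 9.66 and 9.53 with E2. Its E2 arrays were all above its vehicle arrays, by 0.83 ± 0.11 (1.78-fold, adjusted p = 0.00392). FANCI, which is ubiquitinated as a pair with FANCD2, measured 8.75 and 9.07 in control siRNA with vehicle, 9.44 and 9.90 with E2, 8.45 and 8.42 in 17β-HSD1 siRNA with vehicle and 9.31 and 9.43 with E2. FANCI rose by 0.85 ± 0.13 (1.8-fold, adjusted p = 0.00772), again without overlap. The 7 measured core subunits had changes between 0.06 and 0.36, with a median of 0.18 and limma adjusted p between 0.328 and 0.987.

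FANCB, part of the catalytic module with FANCL, had the highest of these at 0.36 ± 0.13. Its signals were 6.00 and 5.58 in control siRNA with vehicle and 6.12 and 6.24 with E2. With 17β-HSD1 siRNA they were 5.78 and 5.66 in vehicle and 5.88 and 6.22 with E2. On every array FANCB was the dimmest measured member, below the array medians of 7.25 to 7.37. FANCC at 0.26 ± 0.11 and FANCG at 0.22 ± 0.13 had the next highest changes. Only FANCC kept its 4 E2 arrays above its 4 vehicle arrays. FANCM, the translocase that anchors the complex to DNA, stood at 0.18 ± 0.15, FANCF at 0.08 ± 0.12 and FANCE at 0.06 ± 0.11. FANCL, the ligase subunit, measured 6.62 and 7.16 in control siRNA with vehicle, 6.49 and 7.26 with E2, 6.34 and 7.11 in 17β-HSD1 siRNA with vehicle and 6.90 and 7.07 with E2. Replicate 2 was the higher array in every group, E2 and vehicle arrays overlapped, and its change was 0.13 ± 0.21.

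**Figure D2:**
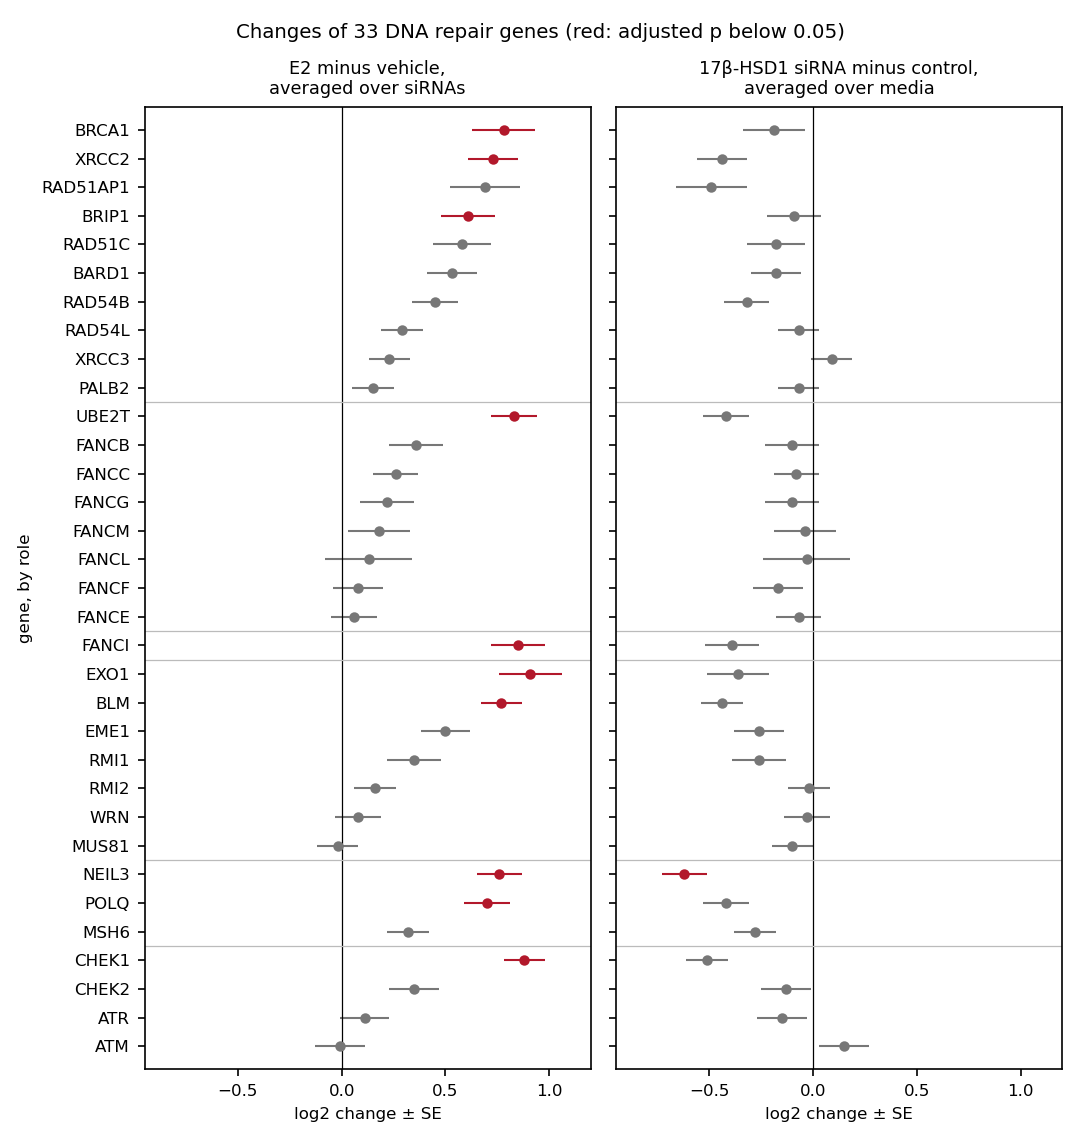
Log2 change ± SE of each of the 33 genes with E2 (left, averaged over the siRNAs) and with 17β-HSD1 siRNA (right, averaged over the media), 4 arrays against 4, with genes that passed an adjusted p of 0.05 in red and grey lines between roles. On the left 10 genes are red, led by EXO1 at 0.91, and the 7 measured core subunits lie between 0.06 and 0.36. On the right only NEIL3, at -0.62, is red.

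Of the resection, helicase and nuclease genes, EXO1 and BLM rose. EXO1, an exonuclease for long-range resection and mismatch repair, had the largest E2 change of the 33 members. It measured 7.99 and 8.24 in control siRNA with vehicle, 8.60 and 9.17 with E2, 7.81 and 7.41 in 17β-HSD1 siRNA with vehicle and 8.68 and 8.64 with E2. The E2 arrays were all above the vehicle arrays, by 0.91 ± 0.15 (1.88-fold, adjusted p = 0.0103). BLM, the helicase that with RMI1 and RMI2 dissolves joined chromosomes, measured 7.00 and 7.04 in control siRNA with vehicle, 7.60 and 7.72 with E2, 6.44 and 6.46 in 17β-HSD1 siRNA with vehicle and 7.39 and 7.30 with E2. Its replicates agreed within 0.12 in every group and its rise was 0.77 ± 0.10 (adjusted p = 0.00326). RMI1 stood at 0.35 ± 0.13 and RMI2 at 0.16 ± 0.10 (adjusted p = 0.4 and 0.848). WRN, another RecQ helicase, was at 0.08 ± 0.11 and stayed between 6.99 and 7.35 on all arrays.

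EME1 and MUS81 encode the subunits of a nuclease that cuts joined molecules. EME1 measured 7.33 and 7.56 in control siRNA with vehicle, 7.81 and 8.06 with E2, 7.31 and 7.02 in 17β-HSD1 siRNA with vehicle and 7.68 and 7.69 with E2. All 4 of its E2 arrays were above its vehicle arrays, and its change of 0.50 ± 0.12 did not pass (adjusted p = 0.0666), though it did after quantile normalization (adjusted p = 0.0422). MUS81 measured 8.55 and 8.53 in control siRNA with vehicle, 8.62 and 8.57 with E2, 8.65 and 8.39 in 17β-HSD1 siRNA with vehicle and 8.45 and 8.39 with E2. Its change was -0.02 ± 0.10 (adjusted p = 0.996), with the 2 media overlapping.

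POLQ, the polymerase of end joining at short homologies, and NEIL3, a glycosylase that also opens some crosslinks, both rose. POLQ measured 6.92 and 6.93 in control siRNA with vehicle, 7.39 and 7.75 with E2, 6.44 and 6.48 in 17β-HSD1 siRNA with vehicle and 7.12 and 7.30 with E2. NEIL3 measured 7.83 and 7.94 in control siRNA with vehicle, 8.38 and 8.75 with E2, 7.23 and 7.14 in 17β-HSD1 siRNA with vehicle and 8.10 and 7.97 with E2. Neither gene had an E2 array as low as any vehicle array, and the rises were 0.70 ± 0.11 for POLQ and 0.76 ± 0.11 for NEIL3 (adjusted p = 0.0108 and 0.00735). MSH6, which recognises mismatches, was at 0.32 ± 0.10 (adjusted p = 0.269), on signals of 8.91 and 8.85 in control siRNA with vehicle, 9.16 and 9.18 with E2, 8.44 and 8.71 in 17β-HSD1 siRNA with vehicle and 8.91 and 8.93 with E2.

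Of the 4 checkpoint kinases only CHEK1 passed. CHEK1 measured 9.62 and 9.79 in control siRNA with vehicle, 10.39 and 10.56 with E2, 9.03 and 9.15 in 17β-HSD1 siRNA with vehicle and 10.04 and 10.12 with E2. It rose by 0.88 ± 0.10 (1.84-fold), with the smallest adjusted p of all members, 0.00252. CHEK2, which acts mainly after ATM, measured 6.60 and 6.72 in control siRNA with vehicle, 7.13 and 7.15 with E2, 6.48 and 6.82 in 17β-HSD1 siRNA with vehicle and 6.73 and 7.05 with E2. Its change of 0.35 ± 0.12 did not pass (adjusted p = 0.285), and 17β-HSD1 siRNA, vehicle replicate 2 lay above 17β-HSD1 siRNA, E2 replicate 1. ATR, at 0.11 ± 0.12, and ATM, at -0.01 ± 0.12, had adjusted p of 0.96 and 0.997. ATM was lowest on control siRNA, E2 replicate 1 (8.15) and highest on 17β-HSD1 siRNA, E2 replicate 2 (8.68).

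**Figure D3:**
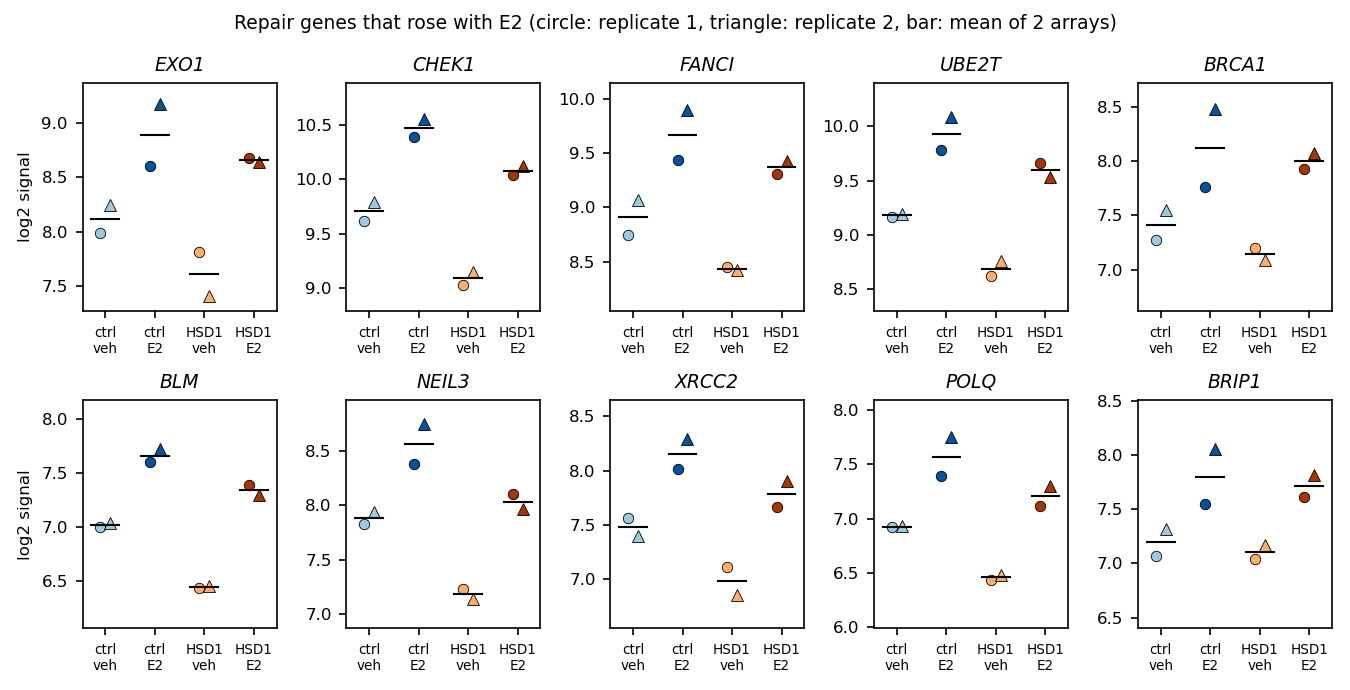
Log2 signal of the 10 repair genes that rose with E2, by group (ctrl, control siRNA; HSD1, 17β-HSD1 siRNA; veh, vehicle), with replicate 1 as circles, replicate 2 as triangles and the mean of 2 arrays as a bar; each vertical axis spans the same log2 range around the gene's own mean. In every panel the 4 E2 arrays lie above the 4 vehicle arrays, and 17β-HSD1 siRNA with vehicle has the lowest mean.

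The E2 changes of partners and paralogues were set side by side. For 13 such pairs, chosen after their values were seen, the within-array difference of the partners was compared between E2 and vehicle by a two-sided exact permutation test over the 8 arrays, whose smallest p is 0.0286. It was reached by 7 pairs, which is a description, since the pairs were picked from their values. The E2 change of CHEK1 exceeded that of ATR by 0.77 ± 0.18 and that of CHEK2 by 0.52 ± 0.20. BLM exceeded WRN by 0.69 ± 0.19, RMI2 by 0.61 ± 0.20 and RMI1 by 0.42 ± 0.15. BRCA1 exceeded PALB2 by 0.63 ± 0.18, and EME1 exceeded MUS81 by 0.52 ± 0.11. Adjusted over the 26 tests, with E2 and knockdown together, these became 0.0929, and a design of this size could pass 0.05 only if most of the tests reached the smallest p, so the adjusted values decide nothing. BRCA1 against BARD1 (0.25 ± 0.11) and against BRIP1 (0.18 ± 0.08), and UBE2T against FANCL (0.70 ± 0.26), each had an exact p of 0.0571.

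**Figure D4:**
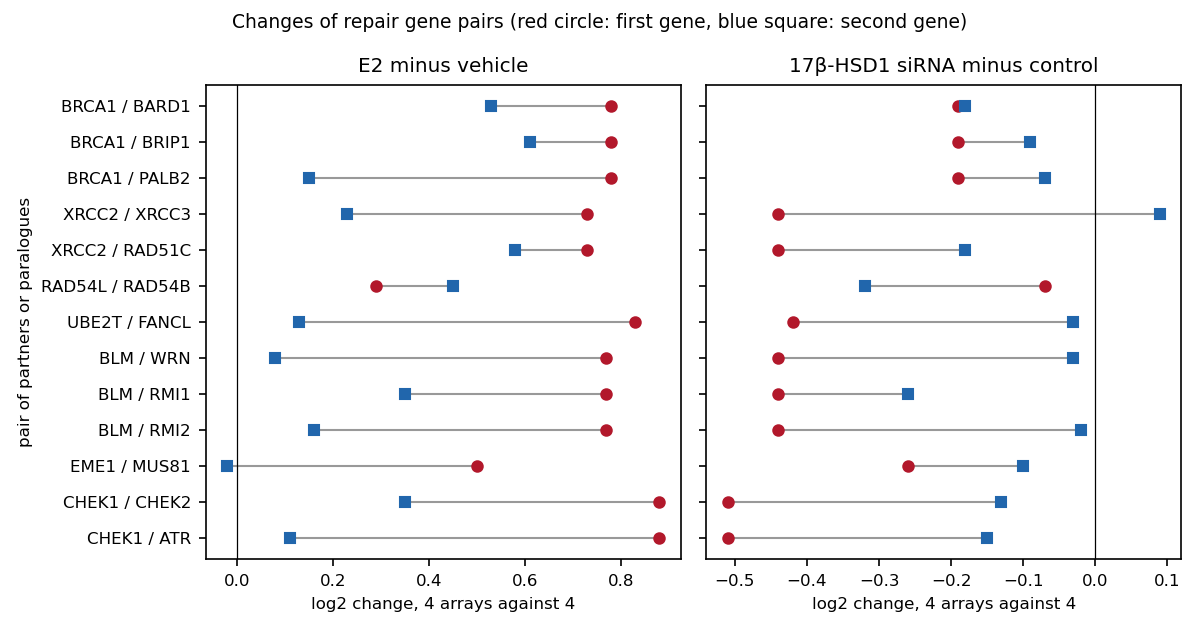
Log2 changes of the first (red circle) and second gene (blue square) of 13 pairs with E2 (left) and with 17β-HSD1 siRNA (right), 4 arrays against 4. With E2 the gap is widest for CHEK1 and ATR, 0.88 against 0.11, and MUS81 is the only gene below 0.

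Stretches upstream of members that rose are shown because 6 of the 9 that have a promoter in the RefSeq table hold a word of the cell cycle homology region, an element of genes of late cell cycle phases. The words were TTTGAA and TTTAAA on either strand, within the 250 bases before a start, in build GRCh38.p14. They were found in 6 of 9 genes that rose, 2 of 20 other members and 25.5% of all 27305 genes in the table, and the search was made after the changes were seen. Among the cell cycle genes 4 of 13 had them (30.8%), and among repair genes outside the members 13 of 62 (21.0%). Some genes have several starts and so several windows, and these shares count genes. By window the words were in 46.2% of 13 for the genes that rose and 7.14% of 28 for the other members. Over all 35116 windows the share was 21.9%. Capitals mark the words, written 5′ to 3′ on the gene's strand:
BRIP1, chr17:61863698-61863773, minus strand: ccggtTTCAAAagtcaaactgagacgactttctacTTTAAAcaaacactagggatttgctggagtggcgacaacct
UBE2T, chr1:202342049-202342124, minus strand: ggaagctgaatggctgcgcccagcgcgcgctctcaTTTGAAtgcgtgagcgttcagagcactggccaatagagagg
EXO1, chr1:241848655-241848730, plus strand: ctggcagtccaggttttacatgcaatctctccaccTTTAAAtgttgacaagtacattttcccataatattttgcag
BLM, chr15:90717096-90717142, plus strand: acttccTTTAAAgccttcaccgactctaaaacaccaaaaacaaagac
POLQ, chr3:121546178-121546238, minus strand: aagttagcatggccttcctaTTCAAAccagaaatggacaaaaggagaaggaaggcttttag
NEIL3, chr4:177309815-177309873, plus strand: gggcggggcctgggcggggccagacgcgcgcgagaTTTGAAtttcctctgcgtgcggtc

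The matches lay 18 bases before the start in NEIL3 and 35 in EXO1, but 147 to 238 in UBE2T, BRIP1, POLQ and BLM. The E2F core was searched on either strand as TTCCCGC or its variant TTCGCGC, and also as TTGCCGC or its variant TTGGCGC. It occurred in BLM and BRCA1 among the 9, in 8 of the 20 others and in 13.0% of all genes. CCAAT, on either strand, occurred in 6 of the 9, in 11 of the 20 and in 37.0% of all genes, and no member's window had it overlapping a cell cycle homology word. A match describes letters in a window and is no evidence of binding.

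The knockdown went the other way for most members, but 1 gene passed. Averaged over the media, 31 of 33 changes were negative, with a median of -0.17 against 0.01 over all genes. NEIL3 fell to 0.651-fold (-0.62 ± 0.11, adjusted p = 0.0474), where 0.217% of tested probe sets fell and 0.24% rose. No member had all 4 knockdown arrays below all 4 control arrays, as 2.16% of probe sets did. None among 33 members is near that share. The arrangement also mixes the media, and most members were higher with E2, so it decides little about the siRNA. NEIL3 was lower on both knockdown arrays than on both control arrays of the same medium, though its 17β-HSD1 siRNA, E2 arrays (8.10 and 7.97) were above its control siRNA, vehicle arrays (7.83 and 7.94). Its call was lost without any 1 of 7 arrays, the exception being control siRNA, E2 replicate 1, and when the fit held all probe sets. CHEK1, at -0.51 ± 0.10 (adjusted p = 0.0723), passed only with the replicate block (adjusted p = 0.0289), with which 0.618% of probe sets fell.

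Next in size were -0.49 ± 0.17 for RAD51AP1, -0.44 ± 0.10 for BLM, -0.44 ± 0.12 for XRCC2, -0.42 ± 0.11 for POLQ and -0.42 ± 0.11 for UBE2T, with adjusted p between 0.0948 and 0.307. FANCI stood at -0.39 ± 0.13 and EXO1 at -0.36 ± 0.15. BRCA1, in contrast to its E2 change, was at -0.19 ± 0.15 and BRIP1 at -0.09 ± 0.13. The 7 measured core subunits lay between -0.17 and -0.03. ATM at 0.15 ± 0.12 and XRCC3 at 0.09 ± 0.10 were the positive values. By limma 12 members had an unadjusted p below 0.05, and 9.44% of all probe sets did. The partner comparison reached an exact permutation p of 0.0286, the smallest the test can give, for RAD54L and RAD54B alone (0.25 ± 0.12, adjusted p = 0.0929). The pairs were chosen after their values were seen, so this too is only a description.

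Other genes shifted on the same arrays. Of the 17 cell cycle genes 3 fell with the knockdown, CDC6, CCNA2 and CCNB1, and the median over the 17 was -0.43. Of 11 interferon-stimulated genes 5 rose, and the median over the 11 was 1.40. Their mean signal was 8.63 and 9.10 in control siRNA with vehicle, 8.56 and 9.99 in control siRNA with E2, 10.10 and 10.78 in 17β-HSD1 siRNA with vehicle and 10.66 and 10.88 with E2. The part of either shift in the members' changes was not tested.

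Within a single medium no member passed under the siRNA. In vehicle the largest differences were -0.70 ± 0.16 for NEIL3 (adjusted p = 0.322) and -0.62 ± 0.15 for CHEK1 (0.341). In E2 NEIL3 stood at -0.53 ± 0.16 and RAD51AP1 at -0.47 ± 0.23. By limma 9 members in vehicle and 6 in E2 had an unadjusted p below 0.05, and 5.45% and 4.61% of all probe sets did. No probe set was called in either (0.0%). With the replicate block 0.174% of probe sets were called in vehicle and 0.212% in E2, with no member among them.

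The 4 groups had the same order in most members. The mean was lowest in 17β-HSD1 siRNA with vehicle, then control siRNA with vehicle, then 17β-HSD1 siRNA with E2, and highest in control siRNA with E2 in 22 of the 33, including all 10 that rose with E2. Those 10 were called for higher E2 signals on the same arrays, so E2 above vehicle in their order largely restates the call. That order was found in 7.95% of all genes. NEIL3 showed it with group means of 7.18, 7.89, 8.03 and 8.57, and CHEK1 with 9.09, 9.70, 10.08 and 10.47. For BRCA1 the means were 7.15, 7.41, 8.00 and 8.12. On average the medium separated the means of NEIL3, CHEK1 and BRCA1 more than the siRNA did.

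With each siRNA alone, E2 changes were positive for 31 of 33 members with control siRNA and 32 of 33 with 17β-HSD1 siRNA. With 17β-HSD1 siRNA 3 members rose, CHEK1 by 0.99 ± 0.15, BLM by 0.90 ± 0.14 and UBE2T by 0.90 ± 0.16, where 0.269% of probe sets rose. Their adjusted p were 0.0278, 0.0287 and 0.0441, and the replicate block added FANCI and NEIL3 (0.509% of probe sets rose). Leaving out any 1 of the 4 arrays with 17β-HSD1 siRNA left 0 calls, and leaving out either control siRNA, E2 array gave 5. With control siRNA none of the 33 passed (0.0707% of probe sets rose), although 18 had an unadjusted p below 0.05 by limma, against 5.94% of all probe sets. CHEK1, at 0.77 ± 0.15, passed there only with the block (adjusted p = 0.0346, 0.42% of probe sets rose). The difference between the E2 changes, tested as the interaction, ran from -0.32 for RAD54L to 0.27 over the members. With or without the block, 0 members were called and 0 had an unadjusted p below 0.05 by limma. Of all probe sets 0.66% had such a p without the block and 1.14% with it, so 0 of 33 is near that share. For the 10 genes that rose with E2 the interaction lay between 0.00 and 0.27, the highest being EXO1. No probe set was called (0.0%), which does not show that the responses were equal.

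The arrays came from 2 independent culture experiments, and arrays of the same replicate number, taken as 1 experiment, were also compared with each other. The labels do not state this match, and deviations of same-numbered arrays correlated at -0.203 to 0.437 between groups. The E2 array exceeded the vehicle array of the same number and siRNA in all 4 pairs for 24 of the 33 members, and in 11.3% of all genes. The median of the members was 0.41 and 0.43 with control siRNA and 0.45 and 0.29 with 17β-HSD1 siRNA, against -0.04 to 0.01 over all genes. For the knockdown the 4 pairs had medians of -0.28 and -0.14 in vehicle and -0.13 and -0.26 in E2, against -0.04 to 0.10 over all genes, and 14 members were lower in all 4, as were 9.44% of all genes. Control siRNA, E2 replicate 2 was the highest array for 26 members, and for 9.86% of all genes, and 28 of 33 were higher on it than on its replicate. 17β-HSD1 siRNA, vehicle replicate 1 was the lowest for 18 members, and for 21.7% of all genes.

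**Figure D5:**
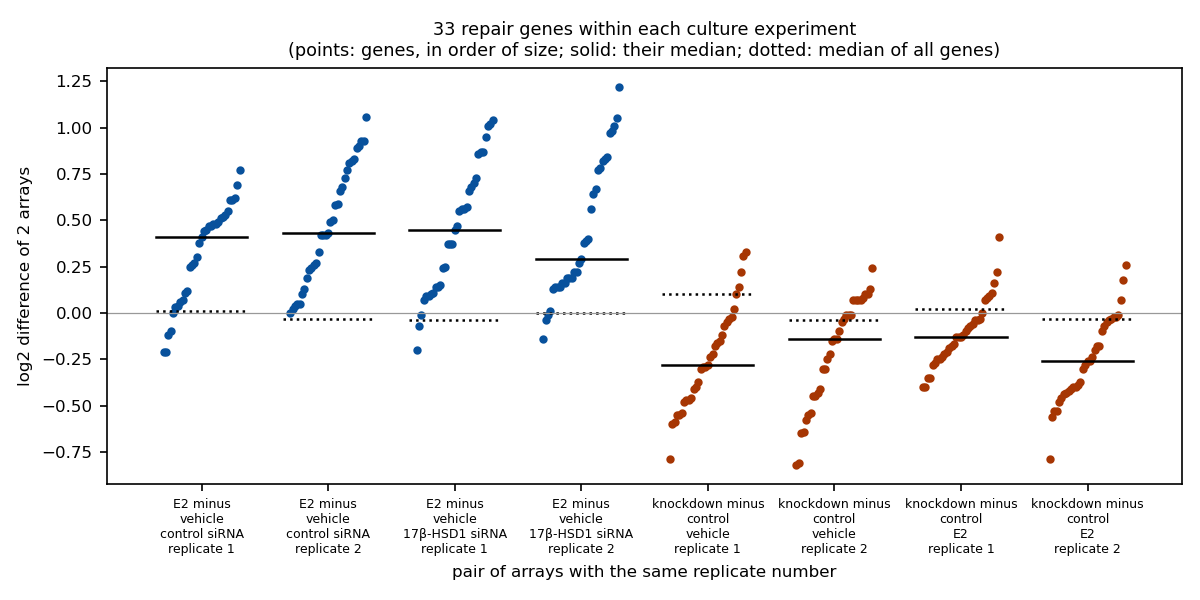
Log2 difference between arrays of the same replicate number, for E2 minus vehicle (blue) and 17β-HSD1 siRNA minus control (orange), with each of the 33 genes as a point, their median as a solid line and the median of all 18417 genes as a dotted line. The 4 E2 medians lie between 0.29 and 0.45 and the 4 knockdown medians between -0.28 and -0.13.

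Other repair genes were compared from a list of 80, of which 72 were measured. With E2, 3 rose, where 1.32% of all tested probe sets did, and the median over the 72 was 0.08. CLSPN, the adaptor through which ATR activates CHEK1, rose by 0.83 ± 0.15 (adjusted p = 0.0169). GEN1, a nuclease for joined molecules, rose by 0.56 ± 0.12 and FEN1, a flap nuclease of replication, by 0.54 ± 0.10 (adjusted p = 0.0441 and 0.0207). With the replicate block DNA2, WEE1 and MDC1 rose too (1.85% of probe sets rose). Under the knockdown none of the 72 passed, with a median of -0.11, where 0.217% of probe sets fell and 0.24% rose. CLSPN and WEE1 fell only with the block (0.618% of probe sets fell). Of the 72, 9 had all E2 arrays above all vehicle arrays, against 17 of the 33 members and 2.94% of all tested probe sets. Both lists were chosen with earlier results of these data known, so this is a description, and the difference between them was not tested.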

How the data were processed

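RNA from 8 T47D cultures was measured, with 2 replicates in each of 4 groups from 2 independent culture experiments, per the labels. The deposited table holds log2 values for 33297 probe sets, from 2.42 to 15.2; how they were background-corrected and normalized was not given in the sources used here. The values were used without further normalization, and array medians lay between 7.25 and 7.37. Of the probe sets, 19460 carry 1 symbol, 1754 several and 12083 none; a gene took its 1-symbol probe set with the highest mean. limma 3.58.1 in R 4.3.3 was fitted to all 8 arrays with 1 coefficient per group and 4 residual degrees of freedom, over the 21214 probe sets with a symbol, with Benjamini-Hochberg adjustment. The fit was tested on simulated data.

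All members could be named. They, the gene lists, the partner pairs and the motifs were chosen with earlier results of these data known. The replicate number was taken to mark the culture experiment. Deviations of same-numbered arrays correlated at 0.437, -0.203, 0.0075, 0.313, 0.306 and 0.42 over the 6 pairs of groups. The alternatives tried were leaving dim probe sets out, other sets of probe sets, quantile normalization, a trended robust spread, a replicate block, a fold minimum and leaving out each array.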

Additional observations from a re-analysis of the deposited data

How the results depend on the processing

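With probe sets without a symbol added, 4 members were called with E2, 0 under the knockdown and 0 for E2 with 17β-HSD1 siRNA, with more probe sets to adjust over. With the replicate block the knockdown called 2, E2 with control siRNA 1 and E2 with 17β-HSD1 siRNA 5; the last was also 5 when fitted to the 4 arrays compared. Leaving out 1 array gave 4 to 12 members with E2, 0 to 1 under the knockdown, 0 to 5 for E2 with 17β-HSD1 siRNA and 0 in the other comparisons, and moved the median change within 0.31 to 0.43 with E2 and -0.22 to -0.12 under the knockdown. Quantile normalization left 10 members with E2, with BRIP1 lost and EME1 gained. A block with the control siRNA, vehicle numbers swapped, chosen after seeing the data, gave 11 members with E2, 1 under the knockdown and 3 for E2 with 17β-HSD1 siRNA. Here and above, the share of all probe sets called is given only for the main fit and the replicate block. In the other fits a change in the members' count cannot be told from a change in that share. Values near 0 that were not called changed sign when 1 array was left out. With E2 these were MUS81 (-0.09 to 0.04), ATM (-0.09 to 0.07), FANCF (-0.03 to 0.18) and FANCL (-0.07 to 0.32). Under the knockdown they were FANCM (-0.17 to 0.09), RMI2 (-0.07 to 0.03), BRIP1 (-0.22 to 0.04), FANCL (-0.22 to 0.17), WRN (-0.08 to 0.03), FANCG (-0.23 to 0.03) and FANCB (-0.20 to 0.01). The cause was not tested. The mean of a gene's probe sets was not run, since each member had 1. The 2 arrays per group limit all comparisons within 1 medium or siRNA.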
